A study of Mus musculus with 6 samples.

Results

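The genes described here encode the nuclear subunits of the 5 complexes of oxidative phosphorylation. They were taken from the deposited gene table by symbol: Nduf genes of the a, b, c, s and v series for complex I, Sdha to Sdhd for complex II, Uqcr genes and Cyc1 for complex III, the subunit genes of the Cox4 to Cox8 series for complex IV, and the Atp5 genes for complex V. Pseudogene symbols with -ps were left out. The rule found 83 of the 37447 genes in the table, of which 37 belong to complex I, 4 to complex II, 9 to complex III, 17 to complex IV and 16 to complex V. Cox4i1 was not analysed here. All 6 libraries hold microglia, the resident macrophages of the central nervous system, sorted from the optic nerve of C57BL/6 mice aged 3 months. The 2 FM libraries come from Nf1 flox/mut mice, and the 4 FMC libraries come from Nf1 flox/mut; GFAP-Cre mice, so a mutant and a floxed Nf1 allele are shared by both groups and Cre tells them apart. In this model of optic glioma the GFAP promoter drives Cre in astroglial cells, not in microglia. The labels call the libraries biological replicates and do not give the number of animals in each, so p-values measure the spread between these libraries. Sex is labelled F for FMC 1, FMC 4 and FM 2 and M for FMC 2, FMC 3 and FM 1.

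Complexes I to IV form the respiratory chain of the inner mitochondrial membrane: complexes I and II pass electrons from NADH and succinate to ubiquinone, complex III passes them to cytochrome c, and complex IV passes them to oxygen. Complexes I, III and IV pump protons, and complex V, the ATP synthase, uses the proton gradient to make ATP. All of them but complex II also hold subunits encoded by mitochondrial DNA, so that the 2 genomes must supply parts of the same enzymes. Microglia use both oxidative phosphorylation and glycolysis, and their balance is known to change with activation.

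Values are FPKM, a level scaled to transcript length and to the fragments of the library. Levels can therefore be set side by side between genes, with a limit. The cDNA was size-selected for longer fragments, and what this does to the levels of short transcripts was not tested. The median coding length of tested members ran from 533 bases in complex III to 1186.5 bases in complex II. The fragments behind each value are not known. Total FPKM ran from 420285 to 674799 per library, and depth estimated from the low values was 1 to 3.25 times that of FMC 2. At the median coding transcript length of the members (655 bases, against 2045 over all genes tested), 1 fragment would then be worth 0.0201 to 0.0652 FPKM. All 15 microglia markers were detected in each library, with a median of 219 to 440 FPKM. Markers of other cells were lower, but their summed levels moved between groups. Of 6 erythroid markers, 5 were below FM in all FMC libraries, and their sum was 158 and 128 FPKM in FM against 23.6 to 32.7 FPKM in FMC. The sum of 9 endothelial and mural markers was 102 and 157 FPKM in FM and 32.2 to 43.6 FPKM in FMC. Most of the FM sums was Mgp, at 74.5 (FM 1) and 128 FPKM (FM 2) against 3.77 to 15.1 FPKM in FMC. Of 7 tested markers of this list 6 were lower in FMC and 1 was higher. Single markers were uneven: Pecam1 was highest in FMC 1 (20.1 FPKM), Flt1 in FMC 2 (11.2 FPKM) and Kdr in FMC 4 (16.7 FPKM). Cldn5 was at 0 in FMC 2, FMC 3 and FMC 4 and reached only 1.09 FPKM in FM 2. For 9 oligodendrocyte markers the sums were 17.2 and 34.2 FPKM in FM against 25.9 to 47.4 FPKM in FMC, for 7 astrocyte markers 117 and 144 against 119 to 122 FPKM, nearly all of it Slc1a3, and for 6 neuron markers 3.61 and 6.25 against 1.59 to 8.32 FPKM. FMC 1 stood apart in several lists: its sum was 269 FPKM over 9 T cell markers (21.4 to 84.9 FPKM in the other libraries), 137 FPKM over 6 B cell markers (25.8 to 109 FPKM) and 70.8 FPKM over 8 skeletal muscle markers (6.29 to 19.8 FPKM). Of the 9 T cell markers 8 were higher and 1 lower in FMC (median log2 difference 1.14), and of the 6 B cell markers 5 and 1 (0.46). The B cell sums of FM 1 (43.7 FPKM) and FM 2 (109 FPKM) were nevertheless above those of FMC 2, FMC 3 and FMC 4. FMC 1, labelled F, held Xist at 16.3 FPKM together with the Y-linked genes Ddx3y at 6.18 FPKM and Uty at 16.3 FPKM, which goes in part against its label. The Y-linked genes Kdm5d (0.926 FPKM) and Eif2s3y (3.37 FPKM) were low in FMC 1. In the male-labelled libraries they were at 11.2 to 13.1 FPKM and 57.8 to 114 FPKM. In bulk samples fewer cells of a type and less RNA per cell cannot be told apart, and the part of other cells in the results below was not tested.

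Among the complexes, the ATP synthase had the highest transcript level in these microglia. The median over its 16 genes was 61.2 (FM 1), 106 (FM 2), 64.6 (FMC 1), 44.7 (FMC 2), 45.2 (FMC 3) and 114 FPKM (FMC 4). It was above the median of each other complex in 6 of 6 libraries. Averaged over libraries, the complex medians were 72.5 ± 30.1 FPKM (SD, n = 6) for complex V, 34.4 ± 15.7 for complex III, 23.2 ± 9.30 for complex II, 21.5 ± 9.50 for complex I and 18.7 ± 7.39 for complex IV. The order below complex V was loose: complex III was above complex I in 5 of 6 libraries, and complexes I and II were each higher in 3. The place of complex IV depended on which genes are counted, because 7 of its 17 genes are isoforms of other tissues or of hypoxia that were low in most libraries and reached at most 15.2 FPKM in any. Without them its median was 72.4 ± 39.3 FPKM (SD, n = 6), higher than that of complexes I and II in 6 of 6 libraries and above and below complex V in 3 libraries each.

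**Figure D1:**
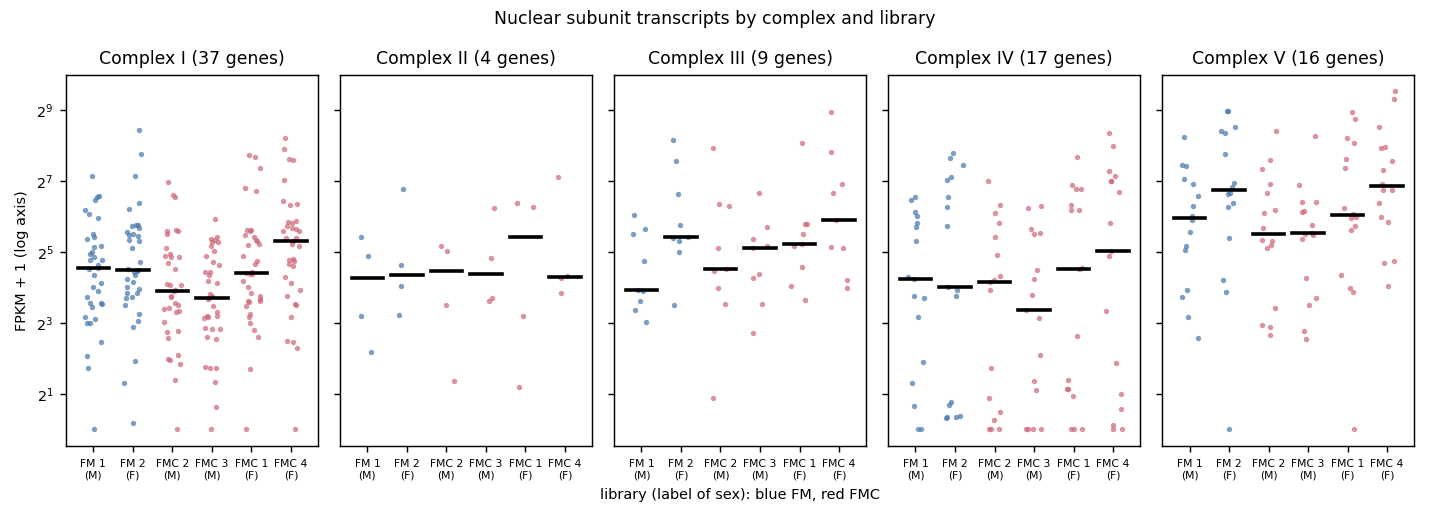
FPKM + 1 (log axis) of every nuclear subunit gene in each library, in a panel per complex, with FM libraries in blue, FMC libraries in red and a black bar at the median of the complex. The bar of complex V is the highest in every library (44.7 to 114 FPKM), and several complex IV genes lie near 0 FPKM in all 6.

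Within complexes the genes differed more than the complexes did. The members with the highest means over 6 libraries, given here with their lowest and highest library, were Atp5l (mean 346 FPKM, 84.0 to 732), which encodes the g subunit in the membrane part of the ATP synthase, Atp5h (mean 346 FPKM, 68.3 to 629.9), its peripheral stalk subunit d, Atp5b (mean 311 FPKM, 172 to 491), the catalytic beta subunit, and Uqcr10 (mean 240.0 FPKM, 64.4 to 485), a small accessory subunit of complex III. Among genes counted by symbol as complex I, the highest were Ndufa4 (mean 174 FPKM, 39.6 to 346) and Ndufs7 (mean 138 FPKM, 28.5 to 296). The protein of Ndufa4 is found in complex IV. The highest was Sdha (mean 78.8 FPKM, 35.0 to 137) in complex II and Cox6a1 (mean 169 FPKM, 74.8 to 322) in complex IV as counted here. In complex II the membrane anchors Sdhc (mean 8.78 FPKM, 1.29 to 13.3) and Sdhd (mean 9.81 FPKM, 1.58 to 18.1) were below the catalytic subunits Sdha and Sdhb (mean 35.2 FPKM, 18.8 to 81.4) in mean level. Many of these genes have near-identical processed copies elsewhere in the genome, and the strand and multi-mapping settings of the quantification are not given in the sources used here, so single levels are uncertain to that degree. This applies most to Atp5l2, a short gene (chr11:97629374-97629764 in mm9) whose symbol marks it as a copy of Atp5l.

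The subunits that exist as isoforms showed a single dominant gene in most families. Microglia used the ubiquitous members: Cox6a1 was at 91.7 (FM 1), 200.2 (FM 2), 201 (FMC 1), 127 (FMC 2), 74.8 (FMC 3) and 322 FPKM (FMC 4). Its partner Cox6a2, the form of heart and skeletal muscle, was at 0.576 (FM 1), 0.604 (FM 2), 1.60 (FMC 1), 0.411 (FMC 2), 1.60 (FMC 3) and 9.07 FPKM (FMC 4). Cox6a1 was thus 35.5 to 331 times higher within a library. Cox6b1 (mean 107 FPKM, 12.8 to 251) likewise stood far above the testis form Cox6b2, which was listed at 0 in FMC 1 and FMC 2, and at 1.18 (FMC 3), 2.68 (FMC 4), 11.97 (FM 1) and 0.260 FPKM (FM 2). Ndufa4, named for complex I but found in complex IV, was at 39.6 FPKM or above in each library, and its hypoxia-induced relative Ndufa4l2 was listed at 0 in 5 libraries and at 0.125 FPKM in FM 2. Cox7b (mean 69.5 FPKM, 41.8 to 103) was above the testis form Cox7b2 in each library, and Cox7b2 was listed at 0 in FMC 1, FMC 4 and FM 1, at 0.209 FPKM in FMC 2, and at 7.76 and 15.2 FPKM in FMC 3 and FM 2. Cox4i2, the lung and hypoxia form of subunit 4, was listed at 0 in FMC 2 and FMC 3 and reached 1.49 FPKM in FM 1. Of the 83 members, 8 were listed at 0 in some library, and a 0 in these files can be a failed estimate.

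In the Cox7a family the muscle form Cox7a1 was listed at 0 in FMC 3, FMC 4 and FM 1 and reached 1.22 FPKM in FMC 1, the library with the highest sum of skeletal muscle markers. Cox7a2 was at 18.6 (FM 1), 14.3 (FM 2), 22.6 (FMC 1), 16.8 (FMC 2), 3.25 (FMC 3) and 31.3 FPKM (FMC 4). Cox7a2l is named in this family but is known for a part in joining complexes III and IV into supercomplexes. Whether it has that part in these C57BL/6 mice was not tested. Cox7a2l was above Cox7a2 in 4 of 6 libraries, and the ratio of Cox7a2 to Cox7a2l ran from 0.275 in FM 2 to 4.32 in FMC 1. In the Cox8 family the ubiquitous Cox8a was among the steadiest members, at 17.9 (FM 1), 12.6 (FM 2), 21.9 (FMC 1), 14.2 (FMC 2), 21.7 (FMC 3) and 28.3 FPKM (FMC 4), a range of 2.25-fold. The testis form Cox8c was listed at 0 in FMC 3, lay between 0.696 and 2.32 FPKM in 4 other libraries and was 8.01 FPKM in FM 1. Cox8b, the form of heart and muscle, was listed at 0 in FMC 1, FMC 2 and FMC 3 and reached 2.76 FPKM in FM 1. FM 1 thus held the highest value of Cox4i2, Cox6b2, Cox8b and Cox8c, while its sum of skeletal muscle markers was 19.8 FPKM.

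The proton-carrying c ring of the ATP synthase is made from 3 genes that encode the same mature protein. Atp5g3 was at 94.2 (FM 1), 323 (FM 2), 266 (FMC 1), 120.4 (FMC 2), 118 (FMC 3) and 246 FPKM (FMC 4). Atp5g2 was at 14.3 (FM 1), 40.7 (FM 2), 13.7 (FMC 1), 5.28 (FMC 2), 12.1 (FMC 3) and 55.9 FPKM (FMC 4). Atp5g1 was at 8.02 (FM 1), 13.7 (FM 2), 14.9 (FMC 1), 6.61 (FMC 2), 10.3 (FMC 3) and 24.6 FPKM (FMC 4). Atp5g3 was the highest of the 3 in 6 of 6 libraries and made up 75.4% to 91.0% of their summed FPKM, with the lowest share in FMC 4. Atp5g2 was above Atp5g1 in 4 of 6 libraries.

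**Figure D2:**
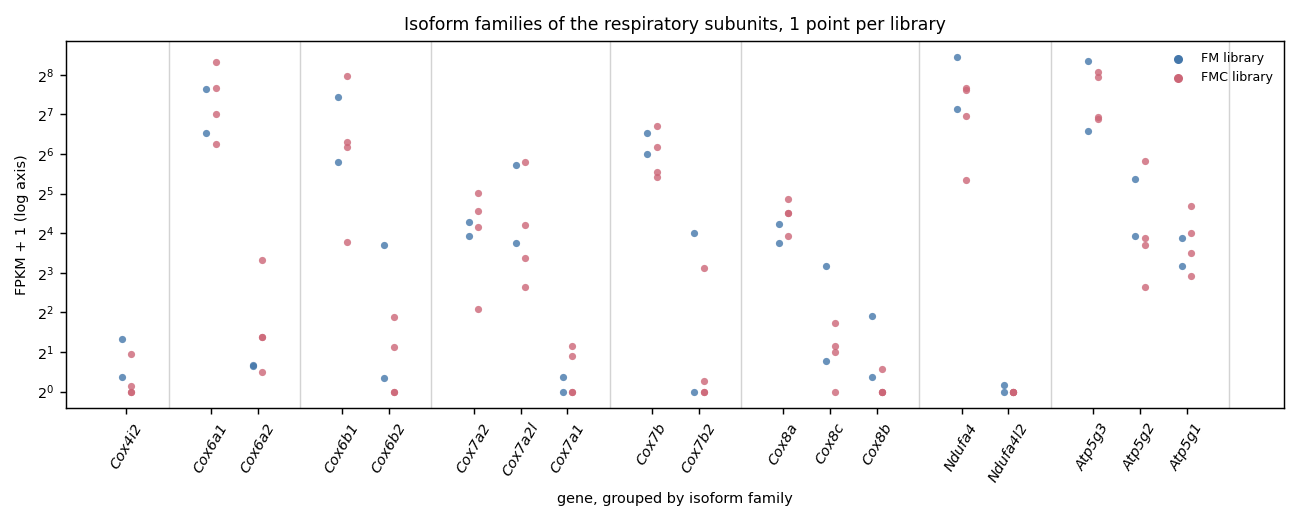
FPKM + 1 (log axis) of the genes of each isoform family, 1 point per library, with FM in blue and FMC in red. The ubiquitous forms Cox6a1, Cox6b1, Cox7b, Cox8a and Ndufa4 lie above the tissue-restricted form beside them in each library, and Atp5g3 lies above Atp5g2 and Atp5g1.

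The promoter windows of these isoforms are shown because the genes of a family differ in level while encoding like proteins. RefSeq windows in GRCm38.p6, a later build than that of the table, run from 250 bases before to 50 bases after the start of the gene and are printed on the gene's strand, which is minus for all 5. Capitals mark matches, on either strand, to 4 sets of letters known from promoters of respiratory genes: GCGCATGC for NRF1, CCGGAAG for the ETS factor GABPA, AAGATGGC for YY1 and AAGGTCA for the estrogen-related receptors. The GCGCATGC letters overlap those of their opposite strand when followed by GC. The windows lie at chr11:96075582-96075881 for Atp5g1, chr15:102670998-102671297 for Atp5g2, chr2:73911277-73911576 for Atp5g3, chr19:7217567-7217866 for Cox8a and chr7:140900397-140900696 for Cox8b.
Atp5g1: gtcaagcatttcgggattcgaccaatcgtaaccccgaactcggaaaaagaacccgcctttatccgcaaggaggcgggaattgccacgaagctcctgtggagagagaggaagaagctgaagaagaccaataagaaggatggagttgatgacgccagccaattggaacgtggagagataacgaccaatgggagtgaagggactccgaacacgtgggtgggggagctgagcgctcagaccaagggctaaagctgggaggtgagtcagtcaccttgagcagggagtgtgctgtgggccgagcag
Atp5g2: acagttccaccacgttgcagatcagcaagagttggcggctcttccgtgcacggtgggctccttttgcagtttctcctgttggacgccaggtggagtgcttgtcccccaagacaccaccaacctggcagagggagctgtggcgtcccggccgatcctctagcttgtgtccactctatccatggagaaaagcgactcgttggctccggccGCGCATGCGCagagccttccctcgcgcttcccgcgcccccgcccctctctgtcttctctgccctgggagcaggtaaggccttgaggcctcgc
Atp5g3: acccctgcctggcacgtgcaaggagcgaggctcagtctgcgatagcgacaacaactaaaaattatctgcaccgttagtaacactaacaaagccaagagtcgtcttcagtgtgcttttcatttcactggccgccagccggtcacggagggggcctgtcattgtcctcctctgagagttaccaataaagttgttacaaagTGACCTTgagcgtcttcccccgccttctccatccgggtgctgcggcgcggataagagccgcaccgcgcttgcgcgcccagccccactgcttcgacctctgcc
Cox8a: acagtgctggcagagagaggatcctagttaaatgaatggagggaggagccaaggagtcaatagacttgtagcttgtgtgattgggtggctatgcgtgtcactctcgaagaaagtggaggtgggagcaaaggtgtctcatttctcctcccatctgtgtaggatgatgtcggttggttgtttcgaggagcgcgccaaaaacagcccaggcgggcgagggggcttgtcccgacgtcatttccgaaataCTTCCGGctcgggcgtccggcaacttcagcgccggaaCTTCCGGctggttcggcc
Cox8b: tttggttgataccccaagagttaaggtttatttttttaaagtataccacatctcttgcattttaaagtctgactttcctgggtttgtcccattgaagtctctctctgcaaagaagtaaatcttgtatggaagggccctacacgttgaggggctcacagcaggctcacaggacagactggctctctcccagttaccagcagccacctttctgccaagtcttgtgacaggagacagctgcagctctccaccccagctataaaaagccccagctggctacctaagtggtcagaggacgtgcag
Atp5g3, the highest of the c ring genes, held the estrogen-related receptor letters, Atp5g2 held the NRF1 letters on both strands at the same place, and no match was found in Atp5g1. Cox8a held the ETS letters at 2 places and 19 CpG dinucleotides, and Cox8b held no match and 2 CpG. A match of letters is a description of the window, not a measured binding site.

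Over all members, 67 of 83 were matched to 72 windows, 1 of them through a synonym. The NRF1 letters were in 10 of the 72 windows (13.9%, against 2.71% of all 32851 windows), the ETS letters in 16 (22.2% against 8.86%), the YY1 letters in 10 (13.9% against 2.75%) and the estrogen-related receptor letters in 8 (11.1% against 4.72%). The windows of members held a median of 19 CpG, against 7 in all windows. Of the 10 windows with YY1 letters, 7 are among the 34 windows of complex I and 3 among the 17 of complex V. None of the 4 windows of tissue-restricted isoforms held any of the 4 sets of letters. At the shares of all windows given above, so few windows cannot show a difference. Their median was 8.5 CpG, near that of all windows.

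The comparison of FMC with FM asks whether microglia of nerves in which Nf1 was deleted in astroglia differ in these transcripts. No nuclear subunit passed the threshold of 0.05. Of the 83 genes, 79 had at least 1 FPKM in at least 2 libraries and were tested with limma on log2(FPKM + 1) within the fit of all 18208 such genes, with Benjamini-Hochberg adjustment over all of them: 36 of complex I, 4 of complex II, 9 of complex III, 14 of complex IV and 16 of complex V. None of the 79 was called, beside 5 of all genes (0.0275%), and the smallest adjusted p of a member was 0.730, for Ndufa6. At an unadjusted p under 0.05, 1 member was higher in FMC (1.27% of 79, against 1.14% of all genes) and 0 were lower (against 4.2%). The FMC libraries lay wholly above both FM libraries in 2 members (2.53%, against 4.34% of all genes) and wholly below in 2 (2.53%, against 8.22%). These shares are near or under those of all genes.

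As a group the members had no direction that held when each library was left out in turn. The median log2 difference was -0.25 over the 79 members, with 30 higher and 49 lower, and -0.12 over all genes tested. By complex it was -0.33 for complex I (12 higher, 24 lower), 0.06 for complex II (3 and 1), -0.10 for complex III (4 and 5), -0.30 for complex IV (4 and 10) and -0.24 for complex V (7 and 9). Without FM 2 the median over all members was 0.03, without FMC 2 it was 0.0004 and without FMC 3 -0.02, against -0.55 without FMC 4 and -0.56 without FM 1. With 1 library left out the median ranged from -0.63 to -0.03 for complex I, -0.37 to 0.52 for complex II, -0.54 to 0.99 for complex III, -0.60 to 0.21 for complex IV and -0.78 to 0.12 for complex V. The sign of complexes IV and V turned without FM 2, and that of complex V also without FMC 3. With adjacent title dates as a block the medians were -0.68 over all members, -0.85 for complex I, -0.87 for complex IV and -0.78 for complex V. These rest only on FMC 2 against FM 1 and FMC 3 against FM 2, because FMC 1 and FMC 4 are alone in their blocks. Both FMC libraries that enter are labelled M, and FM 2 is labelled F. The library medians overlapped between FM and FMC in all 5 complexes, and over all members they were 25.9 (FM 1), 39.1 (FM 2), 28.7 (FMC 1), 17.6 (FMC 2), 17.8 (FMC 3) and 47.4 FPKM (FMC 4). The highest and the lowest library were thus both FMC. Among libraries labelled F the median difference between FMC and FM was -0.05 over the members, and among those labelled M it was -0.48, with a single FM library in each.

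**Figure D3:**
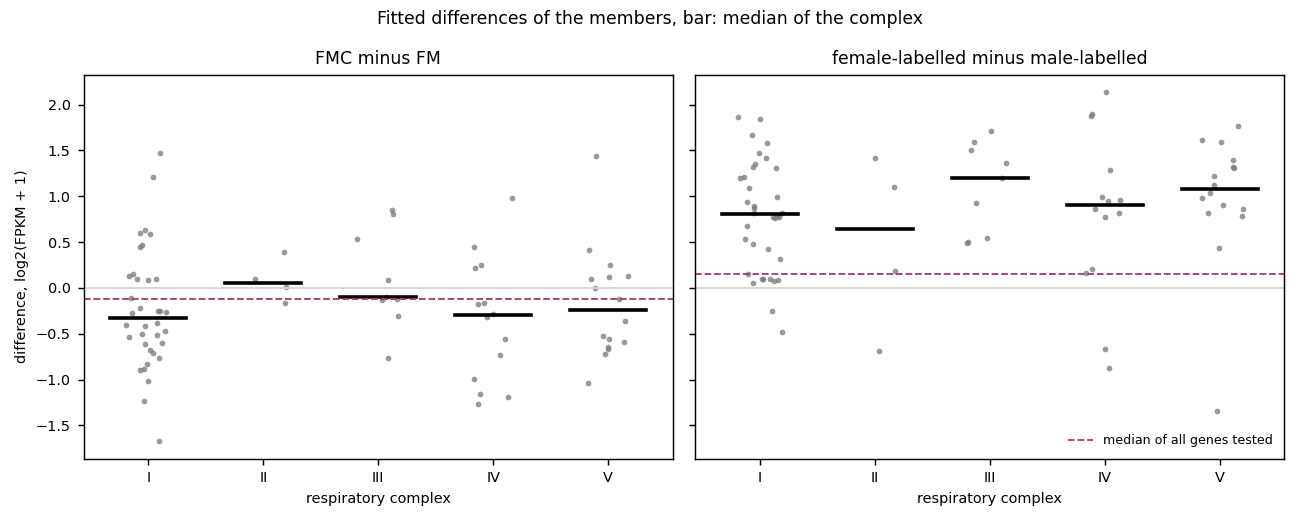
Fitted difference in log2(FPKM + 1) of each tested member, by complex, for FMC minus FM on the left and for female-labelled minus male-labelled libraries on the right. Black bars are complex medians and the dashed line is the median of all genes tested: on the left the medians lie between -0.33 and 0.06, on the right between 0.64 and 1.20.

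In complex I, the NADH dehydrogenase, were all 4 members whose groups did not overlap. Of its 36 tested genes, 2 lay wholly above and 2 wholly below FM, against 4.34% and 8.22% of all genes. Of these 4 members, 3 are described here. Ndufa6, an accessory subunit of the LYR family (ENSMUSG00000022450, chr15:82180569-82184721 in mm9), was at 23.6 (FM 1), 13.2 (FM 2), 47.8 (FMC 1), 46.8 (FMC 2), 37.6 (FMC 3) and 79.0 FPKM (FMC 4). Each FMC library was above both FM libraries, with a mean of 18.4 ± 7.37 FPKM (SD, n = 2 FM) against 52.8 ± 18.0 FPKM (SD, n = 4 FMC), and the difference was 1.47 (log2, SE 0.50, adjusted p = 0.730). Ndufv1, the core subunit that binds NADH and flavin (ENSMUSG00000037916, chr19:4007497-4012806), was at 7.65 (FM 1), 6.45 (FM 2), 10.1 (FMC 1), 15.6 (FMC 2), 16.4 (FMC 3) and 36.1 FPKM (FMC 4). It was also higher in each FMC library, by 1.21 (log2, SE 0.63, adjusted p = 0.993). Ndufv2, which sits beside Ndufv1 and holds an iron-sulfur cluster (ENSMUSG00000024099, chr17:66428135-66450899), went the other way. It was at 35.1 (FM 1), 25.03 (FM 2), 5.07 (FMC 1), 2.92 (FMC 2), 17.3 (FMC 3) and 18.8 FPKM (FMC 4), and the difference was -1.67 (log2, SE 0.78, adjusted p = 0.968). The partners Ndufv1 and Ndufv2 therefore lay on opposite sides, each short of the threshold.

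**Figure D4:**
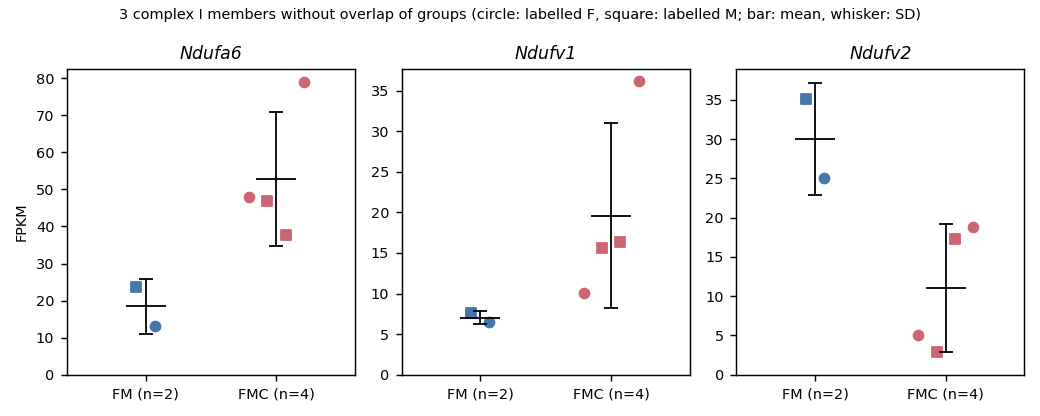
FPKM of Ndufa6, Ndufv1 and Ndufv2 in the 2 FM and 4 FMC libraries, with circles for libraries labelled F, squares for M, a bar at the mean and whiskers of 1 SD. In these 3 genes the FM and FMC points do not overlap.

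Over the 7 core subunits of complex I the median difference was -0.51, with 3 higher and 4 lower, but it was 0.06 without FMC 3 and 0.13 without FM 2. Ndufs7, which holds the iron-sulfur cluster that hands electrons to ubiquinone, had the widest range of the complex in log2(FPKM + 1), at 87.4 (FM 1), 216 (FM 2), 103 (FMC 1), 96.2 (FMC 2), 28.5 (FMC 3) and 296 FPKM (FMC 4). The groups overlapped, and both extremes were FMC libraries. Ndufa4, counted here by its symbol, was at 139.5 (FM 1), 346 (FM 2), 201 (FMC 1), 124 (FMC 2), 39.6 (FMC 3) and 194 FPKM (FMC 4). Its difference was -0.89 (log2, SE 0.73, adjusted p = 0.993). Ndufb8, an accessory subunit, was the steadiest member of all with a mean of at least 5 FPKM: its lowest library was at 33.7 FPKM and its highest at 52.1 FPKM, a range of 1.55-fold. The promoter window of Ndufa6 (chr15:82354242-82354541 in GRCm38.p6, minus strand) is shown because the gene had the smallest p of all members. Capitals mark the NRF1 letters, here as on the opposite strand.
Ndufa6: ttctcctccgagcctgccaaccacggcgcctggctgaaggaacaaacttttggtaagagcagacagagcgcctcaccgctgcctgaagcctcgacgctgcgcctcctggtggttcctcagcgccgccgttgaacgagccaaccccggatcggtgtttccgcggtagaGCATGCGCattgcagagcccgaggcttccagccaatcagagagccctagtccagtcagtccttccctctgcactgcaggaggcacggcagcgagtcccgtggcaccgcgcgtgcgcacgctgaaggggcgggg

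Complex II, the succinate dehydrogenase, is the only complex with all subunits encoded in the nucleus. Sdha, the flavoprotein, was at 42.1 (FM 1), 108 (FM 2), 75.9 (FMC 1), 35.0 (FMC 2), 75.1 (FMC 3) and 137 FPKM (FMC 4). The groups overlapped, with a difference of 0.10 (log2, SE 0.63, adjusted p = 0.999). Sdhb, the iron-sulfur subunit, was at 28.2 (FM 1), 23.6 (FM 2), 81.4 (FMC 1), 31.8 (FMC 2), 27.5 (FMC 3) and 18.8 FPKM (FMC 4), so that FMC 1 stood apart. The anchor Sdhc was lowest in FMC 1: it was at 8.11 (FM 1), 8.33 (FM 2), 1.29 (FMC 1), 10.4 (FMC 2), 11.2 (FMC 3) and 13.3 FPKM (FMC 4). The other anchor, Sdhd, was at 3.56 (FM 1), 15.5 (FM 2), 8.14 (FMC 1), 1.58 (FMC 2), 11.996 (FMC 3) and 18.1 FPKM (FMC 4). In FMC 1, then, Sdhb had its highest and Sdhc its lowest value of the 6 libraries.

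Complex III, cytochrome bc1, had 4 members higher and 5 lower in FMC. Uqcr10 was at 64.4 (FM 1), 282 (FM 2), 268 (FMC 1), 241 (FMC 2), 101 (FMC 3) and 485 FPKM (FMC 4), with a mean of 173 ± 154 FPKM (SD, n = 2 FM) against 274 ± 159 FPKM (SD, n = 4 FMC) and a difference of 0.81 (log2, SE 0.76, adjusted p = 0.993). Uqcrq, another small accessory subunit, was at 9.22 (FM 1), 41.1 (FM 2), 34.8 (FMC 1), 14.8 (FMC 2), 33.3 (FMC 3) and 101 FPKM (FMC 4), and its difference was 0.85 (log2, SE 0.82, adjusted p = 0.993). In both genes FM 1 was the lowest library and FMC 4 the highest, and FM 2 lay within the FMC range. The core protein Uqcrc1 was at 13.8 (FM 1), 30.7 (FM 2), 11.5 (FMC 1), 10.7 (FMC 2), 10.6 (FMC 3) and 14.8 FPKM (FMC 4), and its difference was -0.76 (log2, SE 0.56, adjusted p = 0.993). Uqcrh, the hinge protein at cytochrome c1, had the widest range of the complex on the log2 scale, from 19.7 FPKM in FMC 3 to 225 FPKM in FMC 4. Uqcrc2, the other core protein, stayed between 33.2 and 59.1 FPKM. The 4 catalytic and core subunits (Cyc1, Uqcrfs1, Uqcrc1 and Uqcrc2) had a median difference of -0.0026 (-0.52 without FM 1 and 0.52 without FM 2) and all overlapped between groups.

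Complex IV, cytochrome c oxidase, had 4 members higher and 10 lower. Cox6c, a nuclear accessory subunit (chr15:35855641-35868001), was at 68.6 (FM 1), 219 (FM 2), 118 (FMC 1), 29.0 (FMC 2), 17.8 (FMC 3) and 127 FPKM (FMC 4). Its difference was -1.19 (log2, SE 0.88, adjusted p = 0.993), and the groups overlapped because FMC 1 and FMC 4 lay above FM 1. Cox6b2 and Cox8c, described above among the isoforms, had the other smallest p values of the complex, with differences of -1.26 (log2, SE 1.01, adjusted p = 0.993) and -0.998 (log2, SE 0.87, adjusted p = 0.993), and both rested on FM 1. Cox6b1, which lies on the side of the enzyme that binds cytochrome c, was at 55.0 (FM 1), 172 (FM 2), 71.6 (FMC 1), 78.7 (FMC 2), 12.8 (FMC 3) and 251 FPKM (FMC 4). That is a range of 19.6-fold, within FMC alone. Cox6a1 had a difference of 0.22 (log2, SE 0.64, adjusted p = 0.999). Cox7c stayed between 67.1 and 154 FPKM and Cox7b between 41.8 and 103 FPKM.

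Complex V had 7 members higher and 9 lower. The catalytic head was uneven: Atp5a1, the alpha subunit, was at 63.4 (FM 1), 362 (FM 2), 62.6 (FMC 1), 35.7 (FMC 2), 83.7 (FMC 3) and 157 FPKM (FMC 4). FM 2 was far above all other libraries, and the difference was -1.03 (log2, SE 0.78, adjusted p = 0.993). Atp5b, its beta partner in the head, was at 172 (FM 1), 339 (FM 2), 491 (FMC 1), 193 (FMC 2), 304 (FMC 3) and 368 FPKM (FMC 4), and the difference was 0.41 (log2, SE 0.55, adjusted p = 0.999). Atp5c1, the central stalk gamma subunit, was at 78.1 (FM 1), 112 (FM 2), 47.8 (FMC 1), 71.0 (FMC 2), 40.3 (FMC 3) and 105 FPKM (FMC 4), a difference of -0.59 (log2, SE 0.51, adjusted p = 0.993). Among membrane and stalk subunits, Atp5k (subunit e) was at 172 (FM 1), 216 (FM 2), 165 (FMC 1), 101 (FMC 2), 69.4 (FMC 3) and 187 FPKM (FMC 4). All but FMC 4 were below both FM libraries, and the difference was -0.67 (log2, SE 0.52, adjusted p = 0.993). Atp5h and Atp5l had differences of -0.72 (log2, SE 0.85, adjusted p = 0.998) and 0.13 (log2, SE 0.86, adjusted p = 0.999). For the c ring the differences were 0.25 (log2, SE 0.66, adjusted p = 0.999) for Atp5g1, -0.64 (log2, SE 0.87, adjusted p = 0.999) for Atp5g2 and 0.0024 (log2, SE 0.63, adjusted p = 1.000) for Atp5g3. Atp5l2 was listed at 0 in FMC 1 and FM 2 and reached 25.9 FPKM in FMC 4.

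The members varied between libraries of the same genotype. FMC 4 held the highest value of 46 of the 79 tested members (58.2%, against 20.7% of all genes tested). FMC 3 held the lowest value of 32 (40.5%, against 18.2%) and FMC 2 of 22 (27.8%, against 19.9%). By complex, FMC 3 was the lowest library for 17 of 36 genes of complex I, 6 of 14 of complex IV and 7 of 16 of complex V. In complex III the lowest library was FM 1, for 5 of 9 genes. The median member spanned 5.53-fold from its lowest to its highest library, and the median residual SD was 0.92 (log2) over members and 0.84 over all genes.

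Over all members, the library medians were higher in the 3 libraries labelled F. This split was compared after the levels of the libraries had been seen, with genotype as a covariate. Across 79 members 73 were higher in the 3 female-labelled libraries, with a median log2 difference of 0.91 against 0.15 over all genes. By complex the median was 0.81 for I, 0.64 for II, 1.20 for III, 0.90 for IV and 1.08 for V. No member passed the threshold in limma, and none of all genes did (0%), with a smallest adjusted p of a member of 0.339. At an unadjusted p under 0.05, 24 members were higher (30.4%, against 5.55% of all genes) and 0 were lower (against 1.88%). This count of higher members fell to 7 with quantile normalization, to 11 without the intensity trend or without FMC 4, and to 13 without FM 1 or without FM 2. In 32 members (40.5%, against 9.03%) all female-labelled libraries lay above all male-labelled libraries, and in 0 all lay below (against 3.27%). These 32 include 11 genes of complex I, 1 of II, 5 of III, 6 of IV and 9 of V.

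Cox6c had the smallest p of this split. It was at 118, 127 and 219 FPKM in the female-labelled libraries FMC 1, FMC 4 and FM 2 and at 29.0, 17.8 and 68.6 FPKM in the male-labelled FMC 2, FMC 3 and FM 1, a difference of 2.14 (log2, SE 0.39, adjusted p = 0.339). Cox5a, an accessory subunit of complex IV, was at 108, 126 and 130.4 FPKM against 18.9, 44.7 and 38.9 FPKM, a difference of 1.88 (log2, SE 0.43, adjusted p = 0.385). Atp5g3 was at 266, 246 and 323 FPKM against 120.4, 118 and 94.2 FPKM, a difference of 1.32 (log2, SE 0.32, adjusted p = 0.405). Ndufc2, a membrane-arm accessory subunit of complex I, was at 211, 238 and 139 FPKM against 48.0, 31.3 and 92.2 FPKM, a difference of 1.86 (log2, SE 0.48, adjusted p = 0.426). In each of these genes the 2 sets of libraries did not overlap. Ndufa6, Ndufv1 and Ndufv2, whose FMC and FM libraries did not overlap, had small differences by sex label, of 0.09, 0.10 and 0.09 on the log2 scale.

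Several measures moved with this split. Total FPKM was 608633 to 674799 in the female-labelled libraries and 420285 to 494766 in the others, with no overlap. The cytosolic ribosomal protein genes moved further than the members: 72 of 77 lay higher in all female-labelled libraries, with a median difference of 1.49 and library medians of 591, 763 and 669 FPKM against 284, 252 and 239 FPKM. Of 76 mitochondrial ribosomal protein genes 13 did so, with a median of 0.57. Genes outside the list with a coding transcript of up to 1000 bases and a mean of at least 20 FPKM had a median difference of 0.63, and 29.5% of 881 lay higher in all female-labelled libraries. The members of that length and level had a median of 1.20, and 47.5% of 40 did so. Microglia markers lay higher too, with 7 of 15 above in all female-labelled libraries and a median of 0.61. The dates in the titles of the male-labelled libraries run from November 10 to November 30, and those of the female-labelled libraries lie on October 25, December 1 and December 9. What the dates stand for is not given, and sex, the total and the titles' dates cannot be told apart here. Without FMC 1, whose sex markers were mixed, 73 of 79 members were higher in female-labelled libraries, 50 of them (63.3%, against 19.9% of all genes) without overlap, and the median was 1.02. Scaling of the libraries by other means brought the median of all genes from 0.15 to 0.0099 (median ratios) and -0.015 (quantiles). On these scales 65 and 63 members were higher and 14 and 16 lower, with medians of 0.72 and 0.64.

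**Figure D5:**
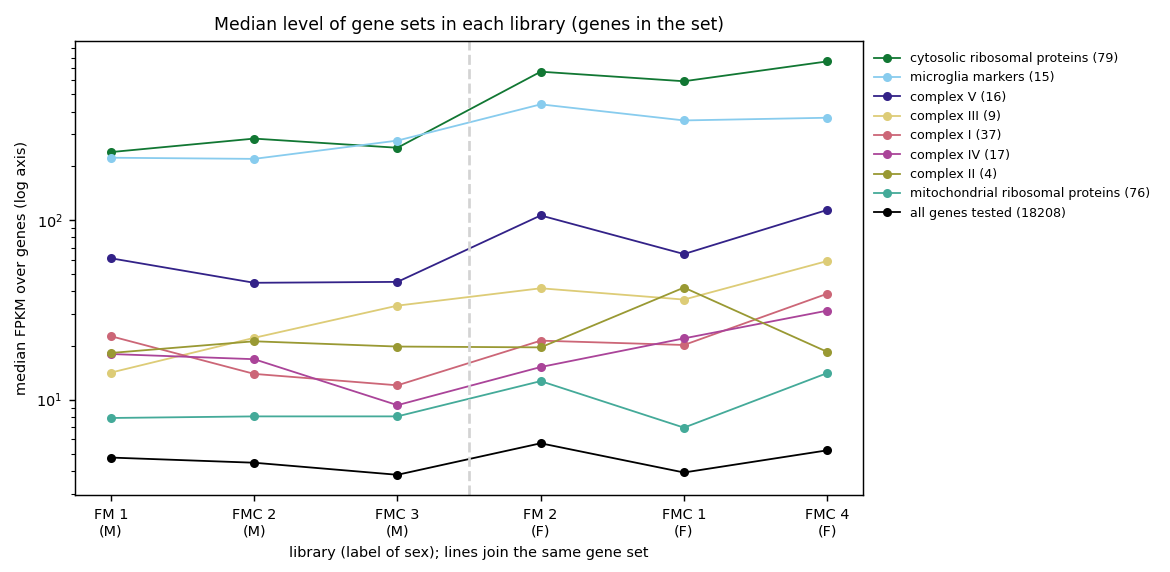
Median FPKM (log axis) of gene sets in each library, male-labelled libraries left of the dashed line and female-labelled libraries right of it, with the number of genes in the legend. Complex V runs from 44.7 to 61.2 FPKM on the left and from 64.6 to 114 FPKM on the right, and cytosolic ribosomal proteins from 239 to 284 FPKM and from 591 to 763 FPKM. The medians of complexes I, II and IV overlap between the sides.

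Other genes of mitochondrial energy metabolism gave no call between FMC and FM either. Of 13 subunits encoded by mitochondrial DNA, 9 were listed at 0 in every library although cells transcribe them abundantly, so nuclear and mitochondrial subunits were not compared. Of 39 assembly factors 37 were tested, with 19 higher and 18 lower and a median difference of 0.04. Those with the smallest p were lower in FMC: Ndufaf2, an assembly factor of complex I, was at 8.61 (FM 1), 26.1 (FM 2), 1.05 (FMC 1), 0.163 (FMC 2), 1.32 (FMC 3) and 3.04 FPKM (FMC 4), a difference of -2.89 (log2, SE 0.85, adjusted p = 0.654). Lyrm7, which guards the Rieske protein before its insertion into complex III, was at 12.2 (FM 1), 1.40 (FM 2), 0.015 (FMC 1), 0.194 (FMC 2), 0.148 (FMC 3) and 0.493 FPKM (FMC 4), a difference of -2.23 (log2, SE 0.74, adjusted p = 0.695). Ecsit, an assembly factor of complex I that also acts in Toll-like receptor signalling, had a difference of -2.03 (log2, SE 0.95, adjusted p = 0.967). In these 3 genes, which were named by p, all FMC libraries lay below both FM libraries. That is 3 of the 37 tested, against 8.22% of all genes, and 0 lay wholly above, against 4.34%.

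Among 12 electron carriers and partners of the complexes 4 were higher and 8 lower, with a median of -0.26. Coq9, needed for ubiquinone synthesis, had a difference of -1.37 (log2, SE 0.71, adjusted p = 0.993), Etfa, the electron transfer flavoprotein alpha subunit, of 0.83 (log2, SE 0.44, adjusted p = 0.993), and Usmg5, a small ATP synthase subunit, of -1.17 (log2, SE 0.65, adjusted p = 0.993). Of 15 genes for transcription of respiratory genes 9 were higher and 6 lower (median 0.38, but -0.087 without FM 1). Peo1, the mitochondrial helicase Twinkle, was at 1.08 (FM 1), 0.346 (FM 2), 6.69 (FMC 1), 4.20 (FMC 2), 1.84 (FMC 3) and 6.17 FPKM (FMC 4), a difference of 1.67 (log2, SE 0.78, adjusted p = 0.967). Tfb1m, a mitochondrial rRNA methyltransferase, had -1.48 (log2, SE 0.74, adjusted p = 0.993), and Mterf, a mitochondrial termination factor, had -1.27 (log2, SE 0.80, adjusted p = 0.993). Of 17 tested genes of the tricarboxylic acid cycle 9 were higher and 8 lower (median 0.02), and the smallest p values were those of Idh2 (-1.01), Idh3g (-0.73) and Suclg1 (1.15). For 17 glycolysis genes it was 8 and 9 (median -0.02), with Tpi1 (-1.83), Aldoc (-0.70) and Pfkl (-0.36) first by p. For 76 mitochondrial ribosomal protein genes it was 33 and 43 (median -0.15). Mrpl32, a protein of the large mitochondrial ribosomal subunit, was at 28.0 (FM 1), 12.7 (FM 2), 44.6 (FMC 1), 55.0 (FMC 2), 70.5 (FMC 3) and 81.9 FPKM (FMC 4), a difference of 1.64 (log2, SE 0.51, adjusted p = 0.672), the smallest p of that list. These medians also moved with single libraries: with 1 left out, that of the tricarboxylic acid cycle ranged from -0.39 (without FM 1) to 0.38 (without FM 2), that of glycolysis from -0.36 (without FM 1) to 0.37 (without FM 2) and that of the assembly factors from -0.19 (without FM 1) to 0.33 (without FM 2). The electron carriers ranged from -0.45 to -0.03 and were at -0.70 with title dates as a block, and the mitochondrial ribosomal proteins ranged from -0.50 to -0.05. None of these genes was called, and the medians of these lists lie on both sides of that of all genes (-0.12).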

How the data were processed

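Microglial RNA was amplified to cDNA, size-selected for longer fragments and sequenced as paired ends, per the labels' protocols. Named in the submitters' processing notes are Cufflinks 2.0.2, Bowtie2 2.0.0, TopHat2 2.0.4, CASAVA 1.8.2 and the mm9 build, with neither roles nor settings. The authors deposited FPKM per gene and library. Depth is unknown, and its relative size was estimated from the lowest values. Each of the 6 value columns carries the name of its library, with 0 columns left over, and 426 genes without a number in some library were left out. Starts were moved to count from 1. Transcript lengths came from GENCODE by gene ID and promoters from RefSeq.

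Tests used limma 3.58.1 (R 4.3.3) on log2(FPKM + 1) with an intensity trend, two-sided, for genes that reached 1 FPKM in 2 or more libraries, with p-values adjusted by Benjamini-Hochberg and a threshold of 0.05. On that scale folds of low genes come out too small. The fits were tested on simulated data. With 2 against 4 libraries an exact permutation test cannot go below 0.0667, so none was used.

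Members, lists and tests were chosen with earlier results of these data known. Named members are those past the threshold, the 3 smallest p, the 2 highest means and the widest range (mean of at least 5 FPKM) of each complex, the isoform families, and genes under the filter or listed at 0. Of other lists, up to 3 genes by p are named. Ndufb8, Uqcrc2, Cox5a, Cox7c, Ndufc2 and Atp5b were named after their values were seen, and 1 member is not reported here. Alternatives were another pseudocount, filter or scaling, no trend, array weights, sex as a covariate, 2 kinds of block, other definitions of the complexes and omission of each library. With title dates as a block only FMC 2 with FM 1 and FMC 3 with FM 2 inform the difference. With the replicate block only FMC 1 with FM 1 and FMC 2 with FM 2 do. The sex split, the ribosomal lists and the genes grouped by length were added after seeing the data.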

Additional observations from a re-analysis of the deposited data

Results flagged for a closer look

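Of 65 sets of 4 FMC values looked at (complex medians, named members and summed lists), 6 had a library far from the other 3 by Dixon's test, which chance alone meets in about 1 of 20 sets. FMC 1 was the library in 4 of them. The complex II median was 42.0 FPKM in FMC 1 against 18.4 to 21.1 in the other FMC libraries. Sdhc was 1.29 FPKM in FMC 1 against 10.4 to 13.3, and Cox4i2 was 0.923 FPKM against 0 to 0.1002. The summed skeletal muscle markers were 70.8 FPKM in FMC 1 against 7.07 to 7.92, most of it Mylpf (58.0 FPKM). Cox7b2 was 7.76 FPKM in FMC 3 against 0 to 0.209, with 15.2 FPKM in FM 2. Cox8b was 0.495 FPKM in FMC 4, while FMC 1, FMC 2 and FMC 3 list it at 0.

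For complex IV, FMC and FM differed in opposite directions under the 2 sex labels. The complex median was 16.8 and 9.31 FPKM in the male-labelled FMC libraries against 17.9 FPKM in FM 1, and 21.9 and 31.3 FPKM in the female-labelled FMC libraries against 15.2 FPKM in FM 2. The male-labelled difference minus the female-labelled one was -16.3 FPKM, and this was not tested. Without the restricted isoforms the directions were no longer opposite in each library: the medians were 35.4 and 33.2 against 52.9 FPKM, and 75.6 and 126 against 111 FPKM.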

How the results depend on the processing

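No member passed the threshold under any alternative run. For FMC against FM the lowest adjusted p of a named member over the limma runs was 0.661. Fragment counts are not known, so what the depth limits was not tested.

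Over all genes, 0 were called higher and 5 lower. Higher calls numbered 1 with a pseudocount of 0.1 and 2 with title dates as a block. Lower calls numbered 0 with sex as a covariate, the replicate block, a pseudocount of 0.1, a minimum mean of 5 FPKM or no filter, 1 with title dates as a block and 10 without the trend. Members wholly below FM numbered 6 after quantile normalization (7.59%, against 6.71% of all genes). In the split by sex label, genes called lower numbered 6 without the genotype covariate. With quantiles, members wholly above numbered 13 (16.5%, against 6.05% of all genes), and the median difference was 0.31 for complex II and 0.64 for all members. The complex IV level was 72.4 FPKM without restricted isoforms.

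With 1 library left out, the calls were 0 to 4 higher and 0 to 4 lower, and members wholly above FM 2 to 15 (15 without FM 2) and wholly below 2 to 18 (18 without FM 1, 13 without FMC 4). Leaving a library out also raises the shares over all genes. Without FMC 1, 7.89% of all genes lay wholly above and 11.1% wholly below, against 5.06% and 3.8% of members. For the other omissions the shares over all genes were not worked out, here or by sex label. Those counts therefore cannot be read as a result about the members. The median of complex II ranged from -0.37 to 0.52 and that of complex III from -0.54 to 0.99 (0.99 without FM 2). By sex label, calls were 0 to 1 higher and 0 to 4 lower, members wholly above 32 to 50 (50 without FMC 1) and wholly below 0 to 2, and complex III 0.63 to 1.58. In fits without an FM library the lone one is assumed to vary like FMC.

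Of 33 named members tested for FMC against FM, 19 changed sign under some alternative, all uncalled. With 1 library left out the ranges were Ndufs7 -1.16 to 0.13, Sdha -0.56 to 0.77, Sdhb -0.019 to 0.67, Sdhc -0.43 to 0.45, Sdhd -0.92 to 0.94, Uqcr10 -0.25 to 1.86, Uqcrh -0.73 to 0.42, Uqcrq -0.17 to 1.87, Cox6a1 -0.34 to 0.78, Cox6b1 -1.37 to 0.26, Cox6b2 -2.95 to 0.42, Cox7a2 -0.52 to 0.46, Cox7a2l -1.72 to 0.25, Cox8c -2.20 to 0.21, Atp5a1 -2.28 to 0.22, Atp5g1 -0.10 to 0.60, Atp5g2 -1.36 to 0.081, Atp5g3 -0.88 to 0.88 and Atp5l -0.82 to 1.08. With title dates as a block Sdha was -0.39, Sdhc 0.36, Sdhd -0.58, Cox6a1 -0.47, Atp5g1 -0.31, Atp5g3 -0.55 and Atp5l -0.60. With quantiles Sdhc was 0.022 and Atp5g3 -0.00057, with array weights Atp5g3 was -0.049 and Atp5l -0.014, with median ratios Uqcrh was 0.024, and with a pseudocount of 0.1 Sdhd was -0.025. The causes were not tested.

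With the replicate block the complex II median was -0.61 and complex I -0.36, and Sdha was -0.38, Sdhd -0.84, Cox7a2 0.24 and Atp5g1 -0.065. Deviations from the group mean had an r of 0.031 and -0.057 across 18208 genes between libraries with the same number. With 2 FM libraries the deviations of FM 1 and FM 2 are mirror images. These values therefore cannot decide whether the numbers pair the libraries.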
